A study of Mus musculus with 2 samples.

Results

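Stretches of the mouse genome in which Myb-bound sites far from gene starts lie close together were examined in the ChIP-Seq peak list of Lin- bone marrow cells. A peak was counted as distal if its summit, the base of highest signal, lay more than 3 kb from every annotated transcript start. Neighboring distal summits on a chromosome were joined into a chain when no gap between them exceeded 12500 bp, and the chains of at least 4 summits were kept. This gave 1950 peaks in 370 chains, out of 10948 distal peaks (17.8%, 95% exact interval 17.1–18.5) and 25793 peaks in all (7.56%). Of the other distal peaks, 3651 were in chains of 2 or 3 summits and 5347 had no distal neighbor within reach. Each chain was named by the protein-coding gene whose start was nearest to any of its summits, a label of position that does not show which gene a site acts on. Distances before or past a start are to the nearest annotated transcript start of that gene.

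The material came from mice labelled WT. In the study's methods, the mice called WT carry floxed Ep300 alleles without Cre and belong to the groups given poly(I:C), and whether that holds for the mice used for this ChIP is not stated. Marrow was depleted of mature blood cells on beads, giving Lin- cells with a stated purity above 80%, a mixture of stem cells and progenitors of several lineages. Chromatin was precipitated with an antibody against Myb or with nonspecific rabbit IgG, and adapters were inserted by Tn5 transposase on the beads. There was 1 Myb library and 1 IgG library, and the deposited peaks are those of the Myb library over the IgG library. There was no replicate, so every interval below covers counting error only, and no p-value was computed across peaks.

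Myb is a DNA-binding transcription factor that is needed for definitive hematopoiesis and that recruits coactivators such as p300 and CBP. Enhancers are stretches of DNA away from the gene start where transcription factors gather and raise transcription, and genes that set the identity of a cell type often have several of them in a row, in introns or in the DNA around the gene. Such rows have been called stretch enhancers or super-enhancers, names that are defined by histone acetylation or by coactivator signal. No histone mark was analyzed here, so the rows are described only as chains of Myb peaks. The sequence Myb binds has a core of AAC followed by a G at a distance of 1 base. The motif searched was any of 4 hexamers, CAACGG or CAACTG or TAACGG or TAACTG, on either strand. A hit on the minus strand is printed as its reverse complement. The hexamer with a C at its start and TG at its end is then also a match to the E-box, CAGNTG, so the E-box counts below overlap with the Myb counts.

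The chained summits with the highest fold enrichment are shown first. They rest on more reads than most members. Some summits of lower fold enrichment rest on more reads than some of them, such as that of Erg with 88 reads against 63 for Gm10322. Of the 10 chained peaks with the highest fold enrichment, 5 held a Myb motif within 50 bp of the summit. Fold enrichment is the Myb signal at the summit over the local IgG background. Each line gives the gene that names the chain, the 101 bp around the summit in mm10 coordinates, and the reference sequence with the Myb motifs in capitals.
Dapp1, chr3:137969141-137969241, plus strand: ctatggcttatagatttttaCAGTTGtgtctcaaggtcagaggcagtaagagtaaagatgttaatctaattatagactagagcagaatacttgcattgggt
Sipa1l1, chr12:82226065-82226165, plus strand: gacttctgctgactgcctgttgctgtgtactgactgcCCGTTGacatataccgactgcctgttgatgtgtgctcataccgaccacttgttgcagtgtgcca
Runx1, chr16:92715615-92715715, plus strand: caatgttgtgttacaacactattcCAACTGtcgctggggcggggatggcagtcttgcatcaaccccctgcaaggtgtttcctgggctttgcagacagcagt
Atp8b4, chr2:126474113-126474213, plus strand: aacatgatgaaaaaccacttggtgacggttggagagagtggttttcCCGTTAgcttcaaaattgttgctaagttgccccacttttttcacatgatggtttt
Gm10322, chr10:59564706-59564806, plus strand: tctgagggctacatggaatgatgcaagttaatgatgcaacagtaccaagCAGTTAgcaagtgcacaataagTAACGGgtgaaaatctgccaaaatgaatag
The next sequences are from chains named by transcription factors of blood cells, and each is the strongest motif-bearing summit of its chain. Those of Erg, Bcl11a and Myb lay in introns, and that of Lmo2 was intergenic.
Erg, chr16:95439293-95439393, plus strand: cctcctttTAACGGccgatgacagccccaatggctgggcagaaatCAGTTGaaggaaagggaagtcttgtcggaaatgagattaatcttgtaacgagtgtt
Bcl11a, chr11:24136264-24136364, plus strand: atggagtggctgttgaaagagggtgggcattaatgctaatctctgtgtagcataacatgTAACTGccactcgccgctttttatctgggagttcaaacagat
Lmo2, chr2:103934702-103934802, plus strand: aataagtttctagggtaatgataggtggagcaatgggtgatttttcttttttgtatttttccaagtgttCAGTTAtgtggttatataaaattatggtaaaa
Myb, chr10:21135767-21135867, plus strand: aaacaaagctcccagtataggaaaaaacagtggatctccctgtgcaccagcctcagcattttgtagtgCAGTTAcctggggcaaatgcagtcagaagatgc
For contrast, the following strong chained summits held none of the 4 hexamers in the same window. The absence of these letters says nothing on how Myb was held there.
Fam117a, chr11:95356713-95356813, plus strand: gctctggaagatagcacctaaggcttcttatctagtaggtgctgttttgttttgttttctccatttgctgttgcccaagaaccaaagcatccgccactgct
Hivep1, chr13:42093695-42093795, plus strand: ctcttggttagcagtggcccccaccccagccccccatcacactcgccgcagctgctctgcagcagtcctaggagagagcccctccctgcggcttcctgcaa

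The Dapp1 summit had a fold enrichment of 26.6 from 96 reads (95% exact Poisson interval 77.8–117), the highest of all chained peaks, and 1 motif. The Sipa1l1 summit reached 26.4 from 112 reads (92.2–135), also with 1 motif. The Runx1 summit had 20.2-fold enrichment from 130 reads (109–154), the largest read number of all chained peaks. The Gm10322 summit, which lies in an intron of Mcu, the mitochondrial calcium uniporter, had 2 motifs and 18.9-fold enrichment. By contrast, the Myb summit shown had 4.04-fold enrichment from 14 reads (7.65–23.5). Fam117a and Hivep1, with none of the 4 hexamers, had 22.0-fold and 19.1-fold enrichment, so strong chained summits occurred with and without these hexamers. The Fam117a window does hold the looser core AACNG, as ctgttg read on the minus strand. That core was found in 56.7% of chained windows.

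Most chains were short. There were 189 chains of 4 summits, 75 of 5, 37 of 6, 24 of 7 and 21 of 8, and 24 chains had 9 to 20. The median chain spanned 14.4 kb from its first to its last summit, with a range of 1.70 to 55.9 kb. Neighboring summits were a median of 2.53 kb apart. In 422 of the 1580 neighboring pairs (26.7%, 24.5–29.0) the edges of the peaks were less than 500 bp apart, so part of the chains is made of adjoining peaks over a wider stretch of signal. When such peaks were counted as 1, the same rule gave 233 chains with 1146 peaks. The limits of the rule cut close to some members. The largest gap inside a chain was 12490 bp and the smallest gap to a distal summit left outside was 12511 bp. The member nearest to a start was 3006 bp away. Peaks 2 to 3 kb from a start had a median fold enrichment of 4.45 and members 3 to 4 kb away had 4.44. The 401 chains of 3, just outside the rule, had a median of 4.44 and the 189 chains of 4 had 4.51.

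Chained peaks were not stronger as a class than other distal peaks. Their median fold enrichment was 4.47 (95% interval 4.44–4.53) against 4.48 (4.47–4.55) in the 8998 unchained distal peaks, and the median read number at the summit was 18 in each. Because the rule chose rows of this peak list, these values are a description. A q-value of at most 0.05 was held by 1792 chained peaks (91.9%), and by 92.8% of all rows. In 305 chains at least 4 summits had such a q-value. Peaks in chains were wider, with a median of 592 bp (578–614) against 518 bp (511–525). With 58.3% of the chained peaks resting on fewer than 20 reads, the strength of a typical member is known only roughly.

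Within a chain the summits were unequal. The strongest summit had a median fold enrichment of 7.60, and the ratio of strongest to weakest had a median of 2.31, from 1.09 to 10.2. The strongest summit held a median of 31.5% of the reads summed over the summits of its chain. It was an end summit in 161 chains (43.5%, 38.4–48.7), where 41.5% would be ends if all summits counted alike. A fold enrichment of at least 10 was reached by 107 chained peaks (5.49%, 4.52–6.59) against 4.47% of all peaks, and 98 chains had such a summit.

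**Figure D1:**
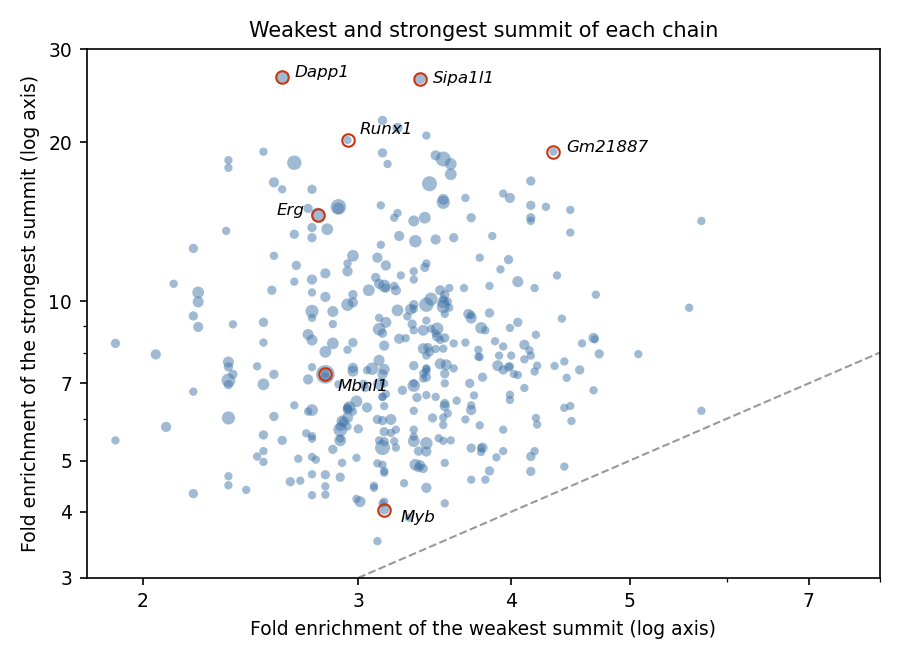
Each of the 370 chains is a point, with the fold enrichment of its weakest summit on the x axis and of its strongest on the y axis, both on log axes, and larger points for chains of more summits. The dashed line marks equal values. Dapp1 and Sipa1l1 stand at the top with strongest summits of 26.6 and 26.4, while the Myb chain lies near the line with 3.15 and 4.04.

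The chain with the most summits was at Mbnl1, which encodes a regulator of RNA splicing. Its 20 summits spread over 50.5 kb, with fold enrichments from 2.82 to 7.28 and a median of 4.30, and 3 of them had a Myb motif. None was strong. Another 5 peaks within 3 kb of a start lay between them and were not counted as members. Mbnl1 named another 2 chains, 32 summits in all, the most of any gene. The chain at Car2, the gene of carbonic anhydrase 2, an enzyme abundant in red cells, had 14 summits over 40.9 kb. Its strongest had 15.1-fold enrichment and lay 7.31 kb before the gene start, and 11 of the summits lay past the start by 3.92 to 29.1 kb. The chain at Dennd4a had 13 summits, led by 18.6-fold and 14.0-fold peaks that lay 21.8 and 18.2 kb before the start.

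By summed reads, the chains at Erg (336 reads), Cd47 (335), Elf1 (329) and Dennd4a (317) came first, and the 20 summits at Mbnl1 followed with 305. The chain at Sipa1l1, with 7 summits and 259 reads, owed most of them to 2 peaks of 26.4-fold and 16.3-fold enrichment, each with a motif, and its other summits were between 3.37 and 4.67. The 9 summits at Dapp1, an adaptor protein of phosphoinositide signaling, were also led by 1 peak. The other 8 values ran from 2.60 to 8.24. Of the 9 summits, 4 had a motif.

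Genes of the transcription factors that specify blood lineages were frequent among the chain names. In a list of 72 such genes, 18 named at least 1 chain (25.0%, 15.5–36.6), where 1.55% of all 21911 protein-coding genes did (339 genes). They were Bcl11a, Egr1, Elf1, Erg, Etv6, Fli1, Foxp1, Ikzf1, Irf2, Klf6, Lmo2, Myb, Runx1, Runx2, Runx3, Sox4, Zeb2 and Zfpm1, with 23 chains. The list was drawn up with earlier results of these data known, so the count is a description. Of the 72 genes, 60 were nearest to at least 1 distal peak of any kind (83.3%), against 22.3% of all protein-coding genes. Their median length was 41.6 kb against 17.4 kb for all protein-coding genes, and the part of gene length in the count was not tested.

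ETS family factors share a DNA-binding domain, and Erg, Fli1, Elf1 and Etv6 are members that act in stem cells and megakaryocytes or in lymphoid cells. The Erg chain had 11 summits over 29.9 kb, all inside the gene. Along the chromosome the fold enrichments were 2.78, 3.74, 14.6, 8.13, 4.95, 8.33, 4.28, 4.14, 5.70, 3.59 and 8.03. The strongest, with 88 reads and 2 motifs, lay 19.9 kb past the nearest Erg start, and 5 of the 11 summits had a motif. At Elf1 the 12 summits were also all inside the gene. They ranged from 2.66 to 18.3, and the second strongest had 8.12. The peak of 18.3 had no motif and lay 6.15 kb past the start, while 3 weaker summits had 1. Etv6, whose loss or fusion is known from leukemia, named 2 chains of 8 summits each, with no value above 6.97 and motifs at 6 summits. Fli1 had 7 summits between 3.39 and 8.14, of which 1 had a motif. A summit above 10-fold was thus present at Erg and Elf1, and none at Etv6 and Fli1.

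Runx1, the core factor of definitive stem cells, had only 4 chained summits, at 8.87, 2.94, 20.2 and 9.63. The strong one lay in an intron, 18.3 kb before the nearest start, with 1 motif. Runx3 had 6 summits between 3.24 and 13.3, none inside the gene, and the strongest lay 52.0 kb past the start. Runx2 had 5 summits between 2.20 and 9.39, all inside the gene and 62.3 to 81.2 kb past the start, none with a motif. All 3 Runx genes of the mouse therefore named a chain, of unlike strength and at unlike distances.

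At Lmo2, an adaptor that holds together the Tal1 and Gata complexes of stem cells, 3 chains of 4 summits stood in a row. The farthest lay 51.3 to 64.0 kb before the start with values of 8.33, 3.59, 4.30 and 6.11. The middle one lay 11.0 to 26.5 kb before the start with 4.34, 7.55, 5.64 and 6.06. The last lay 6.57 to 20.2 kb past its nearest Lmo2 start with 2.77, 3.26, 5.02 and 4.47. The 3 together had 12 summits, 3 with a motif, and none reached 10-fold enrichment. In each of these chains 2 neighboring peaks had edges less than 500 bp apart. Counted as 1, they leave fewer than 4 summits, so no Lmo2 chain remains. In the last chain the summit of 2.77 had a −log10 q-value of 0.796, short of a q-value of 0.05. Ikzf1, the lymphoid factor Ikaros, named 2 chains of 5 and 4 summits around its start and deep inside the gene, with values of 3.53 to 6.41 and 4.19 to 8.65. Bcl11a, the repressor of fetal globin genes and a factor of B cell development, had 5 summits inside the gene, of which 1 reached 13.4 with 51 reads and a motif and the others were between 2.66 and 4.23. Its summits of 2.66, 2.69 and 2.87 had q-values above 0.05, so fewer than 4 met that limit.

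The Myb gene itself named a chain of 6 summits, with a strongest summit of 4.04 where the lowest of any chain was 3.52. The fold enrichments were 3.42, 3.41, 3.33, 4.04, 3.15 and 3.47 from 11 to 16 reads each, and 5 of the 6 had a q-value of at most 0.05. They lay 7.54 to 23.0 kb past the nearest annotated Myb start, which need not be the main promoter. Of the 6, 3 had a Myb motif, and the summit in an exon had 2. Past the far end of the Myb gene, its neighbor Ahi1 named 2 chains of 4 summits, with strongest values of 14.7 and 9.43.

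Among the other factors, Sox4 had a motif-bearing summit of 11.3 among 6, Egr1 1 of 15.0 among 5, and Klf6 values of 3.53 to 8.53. Zfpm1, the Gata partner Fog1, had 7 summits of 2.73 to 8.66, none with a motif. Zeb2 named 2 chains with 11 summits of 2.82 to 7.38, again without a motif. Irf2 and Foxp1 had 4 summits each, with no value above 6.14 and 4.30. The Foxp1 summit of 2.75 had a q-value above 0.05, so fewer than 4 summits met that limit there.

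**Figure D2:**
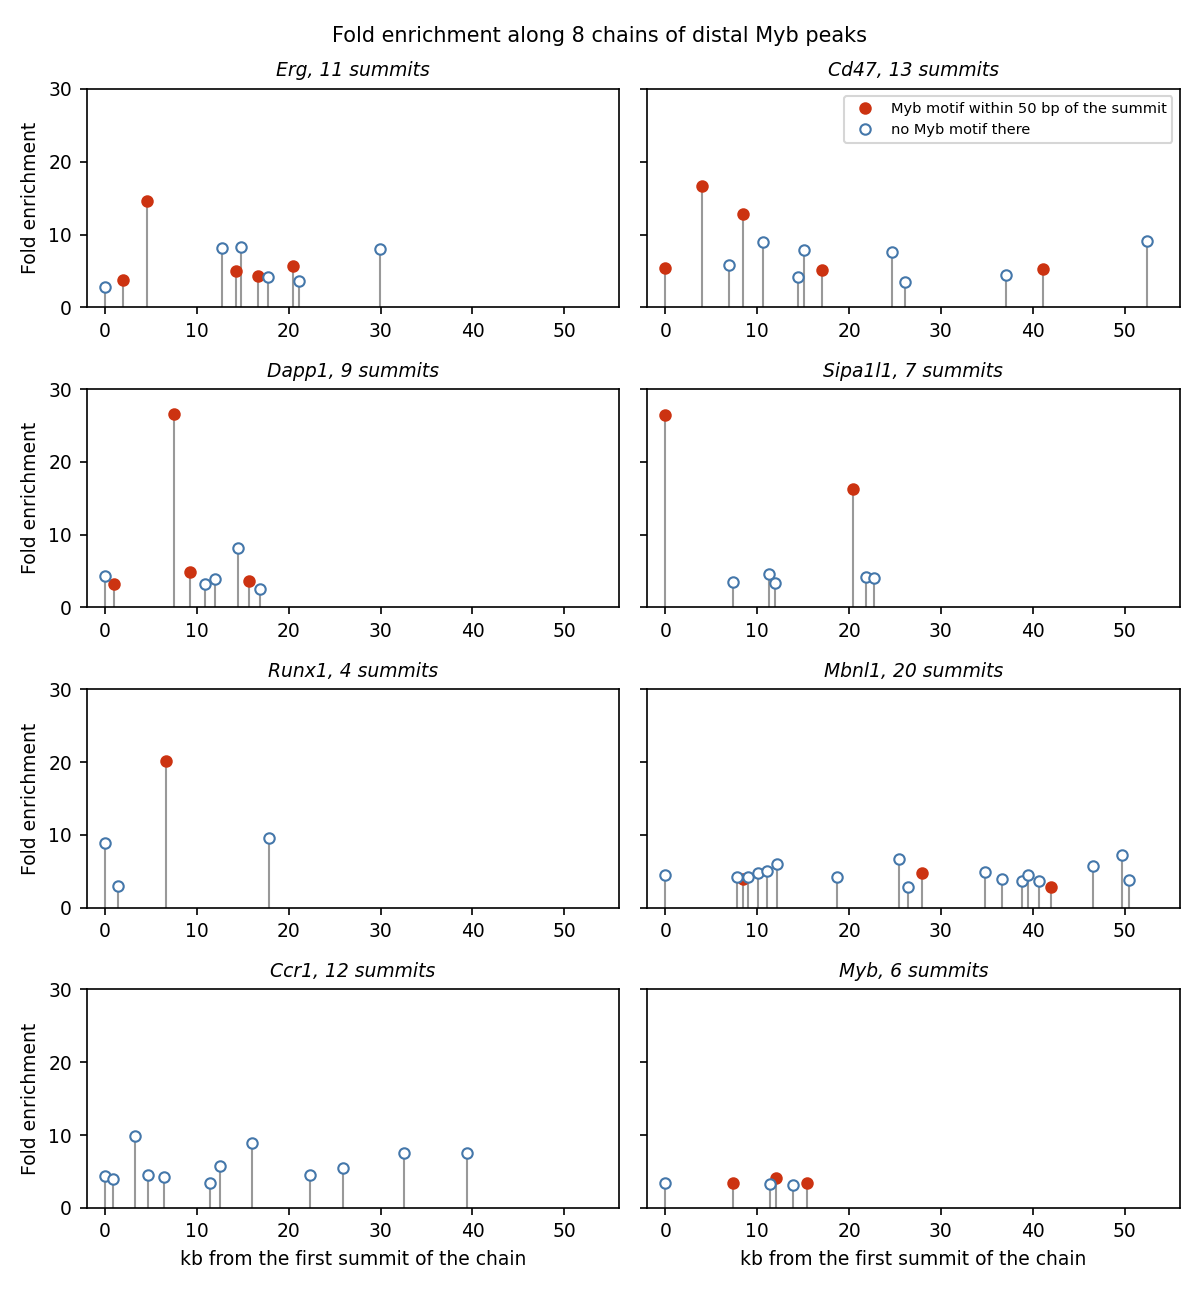
Fold enrichment of every member (y axis) against its distance in kb from the first summit of the chain (x axis) for 8 chains. Filled points have a Myb motif within 50 bp of the summit and open points have none. Erg, Cd47, Dapp1, Sipa1l1 and Runx1 each have a summit above 14-fold with a motif, Mbnl1 has 20 summits of at most 7.28, and the 12 summits at Ccr1 hold no motif.

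Receptors and signaling proteins came next. Of 42 receptor and surface protein genes, 7 named a chain (16.7%, 6.97–31.4), against 1.55% of all protein-coding genes. Among them were Cd47, Cxcr4, Ifngr1, Itga4, Ptprc and Tgfbr2. Of the list, 71.4% were nearest to at least 1 distal peak of any kind, against 22.3% of all protein-coding genes. Median gene length was 29.2 kb in the list against 17.4 kb, and the part of length was not tested. Cd47, the surface signal that restrains phagocytes, had a chain of 13 summits over 52.4 kb and another of 4. In the long one the highest values were 16.7 and 12.8, at 30.0 and 25.6 kb before the start and each with a motif, and 5 of the 13 had a motif, as many as in any chain. Ifngr1, a chain of the interferon gamma receptor, had 10 summits with a motif-bearing peak of 15.4, and the others were between 3.52 and 6.79. Cxcr4, which retains stem cells in the marrow, had 4 summits at 9.62, 15.7, 3.67 and 4.51, all before its start by 16.0 to 34.2 kb. The receptor gene Ccr1, which was not on the list, had 12 summits of 3.41 to 9.86 and no motif at any of them.

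Of 52 signaling genes, 8 named a chain (15.4%, 6.88–28.1), against 1.55% of all protein-coding genes. They were Ccnd3, Cdk6, Inpp5d, Mcl1, Pik3cg, Pik3r1, Ptpre and Socs3. Of the list, 71.2% were nearest to at least 1 distal peak of any kind, against 22.3% of all protein-coding genes. Median gene length was 65.6 kb in the list against 17.4 kb, and the part of length was not tested. Cdk6, the kinase that drives G1 in progenitors, named 2 chains of 9 summits inside the gene with strongest values of 7.46 and 6.93. Ccnd3, a cyclin partner of Cdk6, had 8 summits with a strongest of 10.5. The phosphatase gene Ptpre had chains of 8 and 4 summits, with strongest values of 18.2 and 4.94.

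In the lists of genes that mark finished cells, the counts were too small to tell from the share of all genes. Of 30 neutrophil and monocyte genes only Ccl9 named a chain (3.33%, 0.0844–17.2), of 30 erythroid and megakaryocyte genes Rap1b and Thbs1 (6.67%, 0.818–22.1), and of 24 mature B and T cell genes none (upper limit 14.2%). Car2, described above, was not on the erythroid list. Among 32 genes mutated in myelodysplastic syndromes (MDS) and acute myeloid leukemia (AML), Bcor and Kdm6a did (6.25%, 0.766–20.8). None of 18 stromal and endothelial, 20 neuron, 20 liver and 20 muscle marker genes named a chain (upper limits 18.5% and 16.8%). Median gene lengths were 8.61 kb in the neutrophil and monocyte, 14.9 kb in the erythroid and megakaryocyte, 11.1 kb in the B and T cell, 46.7 kb in the MDS and AML, 38.4 kb in the stromal, 74.6 kb in the neuron and 23.2 kb in the muscle list, against 41.6 kb in the transcription factor list, and the part of length was not tested here either. The lists are small, and apart from the mature B and T cell list all their intervals overlap with that of the transcription factors. The intervals of all the lists in this paragraph include the 1.55% of all genes.

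**Figure D3:**
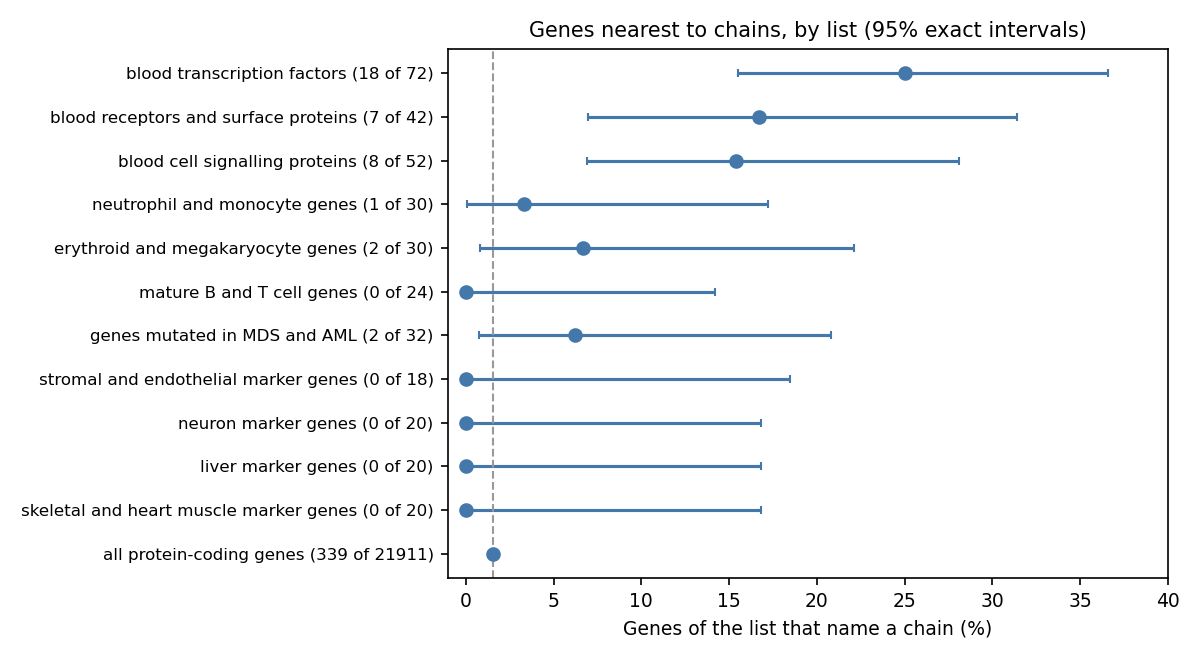
Percent of the genes of each list that name a chain (x axis) with 95% exact binomial intervals, and the counts beside each list. The dashed line is the 1.55% of all protein-coding genes. The transcription factor, receptor and signaling lists lie above the line with their whole intervals.

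Genes that named a chain usually had a Myb peak at their promoter as well, a value the rule did not use. A summit lay within 3 kb of a start in 293 of the 339 naming genes (86.4%, 82.3–89.9), in 2689 of the 4491 genes that were nearest only to unchained distal peaks (59.9%, 58.4–61.3), and in 39.9% of all protein-coding genes. The difference between the naming genes and the other genes near distal peaks was 26.6 percentage points (95% interval 22.3–30.1). Naming genes were also longer, with a median of 60.4 kb (49.3–72.9) against 40.7 kb (38.8–42.4). The part of gene length in this difference was not tested.

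Chained peaks lay in introns more often than other distal peaks. Of the 1950 members, 60.7% were in introns against 55.3% of the unchained distal peaks, a difference of 5.32 points (2.91–7.70). The first intron of a coding transcript held 36.6% against 27.4%, a difference of 9.18 points (6.87–11.5). Of the 370 chains, 176 lay wholly inside 1 coding gene, in 156 cases the naming gene, and 118 touched no coding gene. The nearest summit was within 10 kb of a coding start in 221 chains (59.7%) and more than 100 kb away in 21. Taken peak by peak, the members lay a median of 11.3 kb (10.8–11.8) from any start, somewhat farther than the 10.2 kb (9.89–10.5) of the unchained distal peaks. Among the 21 chains more than 100 kb from a coding start, the one with the most summits had 8, in an intergenic stretch 249 kb from Nfe2l3, and the nearest gene of any kind was that of the microRNA Mir148a. The chain named by Tgfbr2 lay 191 kb from that gene and had a strongest summit of 12.6. For such chains the name says little.

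The Myb motif was present within 50 bp of 360 chained summits (18.5%, 16.8–20.3), against 16.7% of all peaks and 14.7% (14.1–15.2) of the peaks within 3 kb of a start. Of the windows of this width 500 bp to either side, 11.2% held it. The unchained distal peaks had 19.6% (18.7–20.4) at the summit, and the difference of -1.10 points (-2.95 to 0.859) was not detectable with these numbers. With gaps of at most 5 kb it was -4.63 points (-7.01 to -1.95). Lone distal peaks had 20.8%, and here the difference of -2.35 points (-4.35 to -0.276) lay beyond counting error. In motif-bearing chained windows the form CAACTG was the most frequent, in 44.4%, followed by TAACTG in 39.4%, CAACGG in 11.4% and TAACGG in 9.44%. Near starts the forms ending in GG made up a larger part, with 18.9% for CAACGG and 13.7% for TAACGG.

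Within the chains the motif was more frequent at the strongest summit. Of the 370 strongest summits 24.6% (20.3–29.3) had a Myb motif, against 17.0% (15.2–19.0) of the 1580 others, a difference of 7.57 points with a lower bound of 3.03. With chains of gaps up to 5 kb it was 4.36 points (-1.41 to 11.2), and among rows whose −log10 q-value reached 5 it was 13.2 (-0.614 to 28.8), so under these limits it was within counting error. The strongest summits also exceeded the others in motifs of 3 factor families that act with Myb in progenitors. For GATA factors, searched as AGATAA, the shares were 15.9% and 9.11%. Those of ETS factors, searched as AGGAAG, were 21.6% and 15.0%. With TGTGGT for RUNX factors they were 15.4% and 9.87%, and each of the 3 intervals of the difference lay above 0. For CEBP factors, searched as TTGCNNAA, the shares were 6.76% and 6.20%, a difference of 0.554 points (-1.95 to 3.77). E-boxes were also more frequent at the strongest summits, by 5.95 points (0.786–11.4). MEIS (-2.83 points), CTCF (-0.823), AP-1 (-0.985) and IRF motifs (-0.277) had lower shares there, with intervals that include 0. The strongest summits were picked by fold enrichment, so these shares are not particular to chains. Unchained distal peaks of at least 5.95-fold enrichment had similar ones, 25.7% for Myb, 21.4% for ETS, 16.0% for RUNX and 15.7% for GATA. Their CEBP share was 9.70%, above the 6.76% of the strongest summits but inside its interval (4.42–9.81). Whether the place in a chain adds to strength was not tested. A motif was found at no summit in 138 chains and at 1 or more in 232, of which 94 had at least 2 and 25 at least 3.

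Chained peaks held fewer motifs of the partner families than unchained distal peaks. The ETS share was 16.3% against 20.4%, a difference of -4.13 points (-5.91 to -2.24). The RUNX share was 10.9% against 14.0% (-3.12, -4.62 to -1.50), the GATA share 10.4% against 12.3% (-1.87, -3.33 to -0.291), and the CEBP share 6.31% against 7.87% (-1.56, -2.71 to -0.275). The GATA difference came within counting error under 3 of 12 other settings, for example -1.59 points (-3.37 to 0.381) among rows whose −log10 q-value reached 2, and the CEBP difference under 4 of 12. The ETS share was 12.9% (10.3–15.9) in chains of 7 or more summits, where the flanks had 12.8%, from 19.0% (16.3–22.0) in chains of 4. For E-boxes the difference was -1.48 points (-3.67 to 0.788), within counting error. All 4 families were more frequent in chained peaks than in peaks near starts, for instance ETS with 14.2% and RUNX with 7.05% there. Base composition differed little, with a median GC content of 45.5% in chained and 46.5% in unchained distal windows.

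The comparison was repeated among distal peaks of like strength, in 4 equal parts by fold enrichment. In the strongest part, from 5.95 to 26.6, the Myb motif was in 26.1% (22.3–30.2) of the 494 chained and 25.7% of the 2248 unchained peaks, a difference of 0.402 points (-3.71 to 4.82). ETS and RUNX motifs there differed by -1.72 points (-5.42 to 2.36) and 0.0222 points (-3.34 to 3.81). In the weaker parts the ETS share of the chains was lower, with -5.99 points (-9.16 to -2.43) up to a fold enrichment of 3.73 and -8.64 points (-11.9 to -4.92) from there to 4.48. The RUNX share was lower in chains in the middle parts, with -4.98 points (-7.50 to -1.90) from 3.73 to 4.48 and -5.22 points (-7.93 to -1.99) from there to 5.95. The GATA share was lower in the weakest part, with -3.99 points (-6.25 to -1.27), and in the strongest, with -3.51 points (-6.54 to -0.0236). For Myb and CEBP no part had an interval apart from 0. Whether the differences themselves differed between the parts was not tested.

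**Figure D4:**
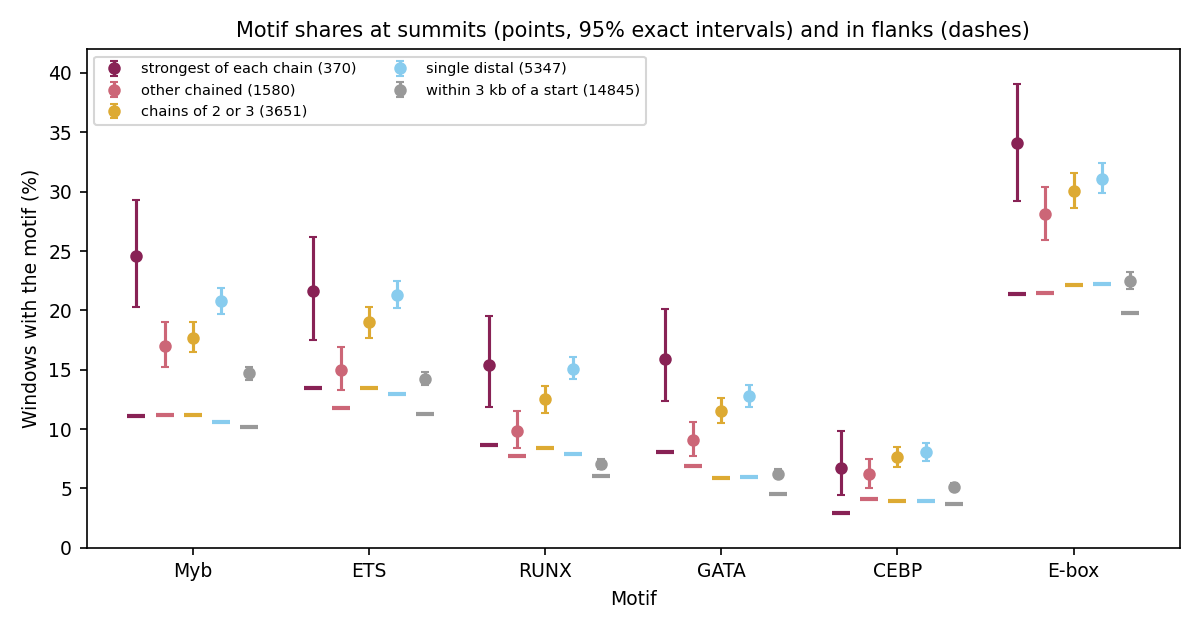
Percent of 101-bp windows holding each motif (y axis) at the summits of 5 classes of peaks (points with 95% exact binomial intervals) and in flanks 500 bp away (dashes). For Myb, ETS, RUNX and GATA the strongest summit of each chain has the highest share of the 5 classes. For each of them its interval includes the share of the single distal peaks, for instance 21.6% against 21.3% for ETS. The strongest summits were chosen by fold enrichment and the single peaks were not. For the same motifs the other chained summits lie below the single distal peaks.

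A chain on the X chromosome stood apart in reads. Its 4 summits, named by the predicted gene Gm21887 and lying inside Mid1, a gene that crosses the boundary of the pseudoautosomal region, had 55, 73, 105 and 50 reads and fold enrichments of 4.33, 8.17, 19.2 and 7.89. The mean of 70.8 reads a summit was the highest of all chains, whose median was 20.8. None of the 4 had a Myb motif. Whether reads placed here also match other copies of the sequence was not tested. The X chromosome had 7 chains in all, 4.09 per 100 Mb, and chromosome 19 had the most for its length with 30.9 per 100 Mb, but among distal peaks the share in chains was 19.7% and 19.8%.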

How the data were processed

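ChIP-Seq of Myb and of an IgG control was carried out on WT Lin- bone marrow cells, with 1 library each. Reads were trimmed with Cutadapt (version 1.15), aligned to mm10 with BWA (version 0.7.13), deduplicated with Picard and filtered on mapping quality and the mm10 blacklist, and narrow peaks were called with MACS2 (version 2.1.1.20160309) by overlap of pseudo-replicates, which are parts of the same library. The fold enrichment is a ratio computed by the authors, of Myb pileup to local IgG background. The p-value and q-value were deposited as −log10 values. The stated limit was a q-value of 0.05, but rows above it are in the list and were kept. The deposited score was not used, since it repeats the p-value. Groups were taken from the sample titles.

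Summits were set against GENCODE vM21 starts, and sequence was read from the GRCm38 (mm10) reference. Motifs were searched on both strands within 50 bp of each summit. CTCF, AP-1 (TGANTCA), IRF (GAAANNGAAA) and MEIS (TGACAG) motifs were searched too, and for none of them did the interval of the difference between chained and unchained distal peaks exclude 0. Reads per summit were recovered from the fold enrichment and the p-value of each row with a pileup scale of 0.769, which gave whole reads in 100% of the rows (tolerance 0.001 on the −log10 p-value). The total depth of the libraries is unknown. Shares have exact (Clopper-Pearson) 95% intervals, medians exact order-statistic intervals and differences of shares Newcombe intervals. These cover counting error only, and neighboring peaks are not independent. The methods were tested on simulated data (Python 3.11.15, pandas 2.3.3, SciPy 1.17.1).

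The members, lists and tests were chosen with earlier results of these data known. Named were the 20 chains with the most summits, the 10 with the most reads, the 10 chained peaks with the highest fold enrichment and the chains of the transcription factor list, some of them only in counts, and a few are not reported here. Chains named beyond this rule, such as those of Cxcr4, Ahi1, Tgfbr2 and Nfe2l3, were picked after their values had been seen.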

Additional observations from a re-analysis of the deposited data

How the results depend on the processing

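The number of chains depended on where the limits were set, as it must by construction. It was 243 among rows whose −log10 q-value reached 2, 45 where it reached 5, 178 with gaps of at most 5 kb, 559 with gaps of at most 25 kb, 771 with at least 3 summits, 181 with at least 5, and 650 with a distance to a start of over 1 kb. The peaks in them were then 1273, 204, 848, 3280, 3153, 1194 and 3646, in the same order. Naming genes numbered 44 where it reached 5, 165 and 520 with gaps of 5 and 25 kb, 666 and 170 with 3 and 5 summits, and 594 over 1 kb from a start. Counting adjoining peaks as 1, an alternative chosen after seeing the data, gave 233 chains, 1146 peaks and 217 naming genes. Blood transcription factor genes naming a chain were 4 where it reached 5 and between 12 and 22 otherwise. The median fold enrichment was 4.60, 4.77 and 6.48 with a q-value up to 0.05 or a −log10 of it that reached 2 or 5, and 4.69 with adjoining peaks counted as 1. The Myb motif share of chained peaks was 23.0% among rows whose −log10 q-value reached 5, 15.1% with gaps of 5 kb, 9.64% and 33.6% with windows of 25 and 100 bp, 56.7% for AACNG and 31.9% for the looser form with a pyrimidine before it. Its difference from unchained distal peaks, within counting error in the report, lay beyond it with gaps of 5 kb (-4.63 points), gaps of 25 kb (-2.10), 3 summits (-2.39), over 1 kb from a start (-1.51) and protein-coding starts alone (-1.78), and was 0.254 (-2.12 to 2.81) with adjoining peaks counted as 1. The cause was not tested. The differences that follow were added to the planned results after the data were seen, and were recomputed under 12 alternatives. Those in promoter peaks and in the first intron kept their direction with intervals apart from 0. The genes with a promoter peak were the same in every alternative, so the first of these was only partly put to the test. With the limit of 1 kb, a member 1 to 3 kb from a start could also count as a promoter peak. The lower ETS and RUNX shares each came within counting error under 1 of the 12, GATA under 3 and CEBP under 4, all with the direction kept. No paired analysis was possible because each group had 1 library. Depth limits single members, since 58.3% rest on fewer than 20 reads.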
